A study of Oryza sativa with 3 samples.

Results

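The fragments described here are the tRNA-Asp fragments of 30 nt or more found in rice (Oryza sativa) pollen, chosen as the listed sequences that carry the anticodon label GTC and reach that length. The small RNA lists hold 31 such sequences among 5477 in uninucleate microspores (UNM), 103 among 14717 in bicellular pollen (BCP) and 64 among 8633 in tricellular pollen (TCP), which makes 130 distinct sequences among 18424. Spores of the cultivar Guichao No.2, grown in the field, were separated on sucrose gradients, and 1 library was made per stage with no treatment or mutant, so the values compare libraries and no test between stages was possible. UNM are haploid spores before the first pollen mitosis. In BCP that division has given a large vegetative cell and a small generative cell, and in TCP the generative cell has divided into sperm cells. The lists sum to 686685 reads in UNM and 4958412 reads in BCP, a 7.22-fold difference in depth, and the number listed for TCP was not taken as reads, so that TCP is described by presence only. The lists hold no other class of RNA, so markers of the spore stages could not be checked.

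A tRNA folds into a cloverleaf of an acceptor stem and 3 arms, and the anticodon lies in the loop of the arm opposite the acceptor stem. Cleavage in that loop gives a long fragment of the 5′ side and one of the 3′ side, while cleavage in the D or T arm gives shorter fragments. Anticodon-loop cleavage in plants has been linked to RNase T2 ribonucleases. Long 5′ fragments of tRNA-Asp are among the abundant tRNA-derived RNAs described in several plants.

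Of the long reads, 99.94% in UNM and almost all in BCP (1337115 of 1337156) came from a single tRNA-Asp sequence, which could be read along its length by chaining overlapping members. Its 72 bases are shown first because every position below is counted on it, from 1 at its first base, with the 7-base anticodon loop in capitals. This chain has 7 acceptor pairs between its ends and 5 pairs in the anticodon stem. The loop spans bases 32 to 38 and the anticodon spans bases 34 to 36. The leading series' members that end at bases 30 to 36, with no base change, follow because they carry most of the reads, and there capitals mark the bases from 32 on, inside the loop.
tRNA-Asp chain, bases 1 to 72: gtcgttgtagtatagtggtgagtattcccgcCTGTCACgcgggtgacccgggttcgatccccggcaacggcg
end 30: gtcgttgtagtatagtggtgagtattcccg
end 31: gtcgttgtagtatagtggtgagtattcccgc
end 32: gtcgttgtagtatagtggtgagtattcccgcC
end 33: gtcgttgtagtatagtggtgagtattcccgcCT
end 34: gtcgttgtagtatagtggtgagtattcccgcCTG
end 35: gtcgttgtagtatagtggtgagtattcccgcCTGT
end 36: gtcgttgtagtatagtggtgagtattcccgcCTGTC

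Long tRNA-Asp fragments were a small part of the UNM list, where long fragments of tRNA-Glu (9242 reads) and tRNA-Gly (7634 reads) were more abundant. In BCP the tRNA-Asp ones were the largest single group of long fragments. They held 3413 reads in UNM, 0.497% of the list (exact Clopper-Pearson 95% interval 0.481 to 0.514%), and 1337156 reads in BCP, 26.97% of the list (26.93 to 27.01%). Their share was 54.3 times higher in BCP (exact conditional binomial 95% interval 52.5 to 56.1). Every interval given here reflects the counting error of reads alone. With 1 library per stage it says nothing of how libraries of a stage vary. Reads carry no molecular identifiers, so copies of a molecule could not be told apart, and the intervals may be too narrow. A share also cannot tell more of these fragments from less of the rest, since the reads of all small RNAs were not used here.

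Long tRNA-Asp fragments differed more between the libraries than short ones. Fragments of the same label under 30 nt went from 0.628% to 9.31% of the list, a 14.8-fold higher share (14.4 to 15.3). The long ones therefore went from 44.2% of the tRNA-Asp reads in UNM (43.1 to 45.3%) to 74.3% in BCP (74.3 to 74.4%), 1.68 times higher (1.63 to 1.74). Reads of 30 nt or more of all tRNAs together numbered 27718 of 686685 in UNM and 2518356 of 4958412 in BCP. A higher share of long reads in BCP was thus not particular to tRNA-Asp. Among all reads of 30 nt or more, tRNA-Asp held 12.3% in UNM and 53.1% in BCP. Long fragments of all other tRNAs combined went from 3.54% to 23.8% of the list, a 6.73-fold higher share (6.65 to 6.82). By amino acid, tRNA-Asp had the highest of 20 ratios for long fragments, but tRNA-Phe stood at 53.4 (44.1 to 65.3) on far fewer reads, 105 in UNM and 40495 in BCP, and the intervals overlap. tRNA-Leu at 40.2 (36.1 to 44.9) and tRNA-His at 29.4 (27.7 to 31.2) came next.

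Single members mostly pointed the same way. Of the 130 members, 25 reached 50 summed reads, and 24 of these were at least 2-fold higher in BCP with an interval that excludes 1, while 1 was lower. Over all 1794 sequences compared by the same rule, 68.2% were higher and 17.2% lower. Over the 496 long sequences of other tRNAs, 92.3% were higher and 2.82% lower, so the share of members called higher is near what other long fragments showed. The median ratio was 12.5 for the 25 members, 8.74 for other long sequences and 4.04 for all sequences compared. The other 105 members hold 25 reads in UNM and 599 in BCP, with no more than 11 and 46 reads each. Of these, 19 have no count because TCP alone lists them under the label GTC. The rule on summed reads favours sequences that are high in the deeper BCP library.

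The leading series, made of the fragments that start at base 1, held 97.5% of the long tRNA-Asp reads in UNM and 99.5% in BCP. The fragment that ends at base 32, the first base of the anticodon loop, had 955 reads in UNM and 677135 in BCP. Among all listed sequences it came first in BCP, at 13.66% of the list, and ranked 59 in UNM, at 0.139%. Its share was 98.2 times higher in BCP (92.2 to 105).

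The fragment that ends at base 33, the base before the anticodon, was the most abundant member in UNM. It had 1354 reads there and 334009 in BCP, where it ranked 2 among all sequences, and its share was 34.2 times higher (32.4 to 36.1). The fragment that ends at base 35, inside the anticodon, had 549 reads in UNM and 258308 in BCP, 65.2 times higher (59.9 to 71.0). The fragment that ends at base 34, the first base of the anticodon, was the lowest of these 4 in both libraries, with 206 reads in UNM and 50774 in BCP, 34.1 times higher (29.8 to 39.3). These 4 fragments together made up 89.8% of the long tRNA-Asp reads in UNM and 98.7% in BCP.

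The stem side of the loop was sparsely used. The fragment that ends at base 31, the last base of the stem, had 23 reads in UNM and 6937 in BCP, 41.8 times higher (27.8 to 65.9). The 30-nt fragment had 5 and 3597 reads, a ratio of 99.6 with a wide interval (42.7 to 307). At the length threshold, the fragment of 29 nt just outside had 9 reads in UNM and 4582 in BCP, close to those of the 30-nt fragment just inside, and the reads then increase steeply at base 32.

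The only member called lower was the fragment that ends at base 36, the last anticodon base. It had 231 reads in UNM and was not among the BCP reads, where its count of 0 was set to a floor of 3 counts in the library, 6.05e-05% of the list. Against that floor its share was 556-fold lower, and the exact interval of the ratio, from the counts as listed, starts at 449. The TCP list holds it. Other tRNAs show gaps in the BCP list at these lengths too: of 10 sequences of 36 nt of other tRNAs with at least 20 UNM reads, 4 are not in the BCP list, and of 47 such sequences of 34 to 37 nt, 15 are not. The 45 of 30 to 33 nt are all in the BCP list. The part of these gaps in the fall of the 36-nt fragment was not tested. Lengths of 37 and 38 nt are absent from the leading series in every library, and above them BCP lists a fragment of 39 nt with 46 reads, and UNM one of 40 nt with 4 reads. Over all tRNAs, the lists hold 13 sequences of 37 nt in UNM, 1 in BCP and 49 in TCP. At 38 nt they hold none in UNM or BCP and 1 in TCP. Only BCP holds sequences of 39 nt, and only UNM and TCP hold those of 40 nt.

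Within the leading series the preferred 3′ end moved by 1 base between UNM and BCP. Of the series' reads with no base change, 28.7% ended at base 32 in UNM (27.2 to 30.3%) against 50.9% in BCP (50.8 to 51.0%). The share that ended at base 33 was 40.7% (39.02 to 42.39%) in UNM and 25.1% (25.02 to 25.17%) in BCP. The number of reads at base 32 for each read at base 33 was 0.705 in UNM (0.649 to 0.767) and 2.03 in BCP (2.02 to 2.04).

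The other ends moved less evenly. Base 35 took 16.5% of the series in UNM and 19.4% in BCP, and base 34 took 6.19% and 3.82%. Reads at base 33 for each read at base 34 were 6.57 (5.67 to 7.65) in UNM and 6.58 (6.52 to 6.64) in BCP. Reads at base 35 for each read at base 34 went from 2.67 (2.27 to 3.14) to 5.09 (5.04 to 5.14). In both libraries base 34 was thus a low point between higher values at bases 33 and 35.

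The mean 3′ end was 33.3 in UNM (SD over reads 1.28) and 32.9 in BCP (SD over reads 1.17), a difference of -0.40 nt. Part of it comes from ends beyond base 35: over ends 30 to 35 alone the means are 33.09 and 32.9, a difference of -0.19 nt, and base 32 then took 30.9% in UNM and 50.9% in BCP. Shorter fragments with the same start also changed, so the direction over all lengths differs. Over all fragments from 13 nt the mean end was 1.001 nt further in BCP. Fragments of 17 to 19 nt, which end in the D arm, went from 27.8% to 4.42% of the series, while those of 13 to 15 nt went from 2.84% to 14.1% and those of 32 to 35 nt from 62.5% to 79.5%. The 14-nt fragment had 131 reads in UNM and 230728 in BCP, and the 19-nt fragment 892 and 67690.

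A shorter mean length in BCP was not particular to tRNA-Asp. Of 18 other nested series with at least 100 reads of 30 to 35 nt in both libraries, 14 had a shorter mean in BCP and 4 a longer one. Their median difference was -0.17 nt, with a range of -1.16 to 0.51 nt, and the -0.19 nt of tRNA-Asp ranked 10 of 19. The most frequent length stayed the same in 12 of the 18, and moved from 33 to 32 nt in tRNA-Asp.

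Fragments that start at bases 2 to 4 had a larger share of ends at base 32 than the full-length series did. They are shown with those that carry a base change in the same stretch, because the shares of ends, given below, differ between the groups. From start 4 the fragment that ends at base 32 is under 30 nt, so the one that ends at base 33 is shown. Capitals mark bases from 32 on in the first group, and the changed base in the variants, which are given as reference base, position and variant base.
start 2: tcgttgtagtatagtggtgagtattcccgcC
start 3: cgttgtagtatagtggtgagtattcccgcC
start 4: gttgtagtatagtggtgagtattcccgcCT
G1A: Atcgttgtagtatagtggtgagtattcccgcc
A12G: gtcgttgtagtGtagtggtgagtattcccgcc

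The start-2 fragment had 22 reads in UNM and 1851 in BCP, 11.7 times higher (7.67 to 18.6). The start-3 fragment had 12 and 1523, 17.6 times higher (10.03 to 34.09). The start-4 fragment had 2 and 203, 14.1 times higher (3.84 to 117). These ratios lie below the 34.1 to 99.6 of the leading members of 30 to 35 nt, but only the interval of the start-2 fragment lies below all of theirs. Among all tRNA-Asp fragments that start at bases 1 to 7 and end at bases 30 to 36, shorter ones included, base 1 was the start of 98.2% of reads in UNM and 99.5% in BCP.

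In BCP, 87.9% of the 2107 reads with start 2 ended at base 32 (86.4 to 89.2%), as did 84.2% of the 1809 with start 3 (82.4 to 85.8%) and 68.5% of the 2206 with start 4 (66.5 to 70.4%). The full-length series stood at 50.9%, below all 3. Base 35 took 0.902%, 1.82% and 8.16% of these reads, and 19.4% of the full-length series. In UNM the reads with these starts were 25, 15 and 17, and base 32 took 88.0% (68.8 to 97.5%), 80.0% (51.9 to 95.7%) and 76.5% (50.1 to 93.2%), so in that library too the lower limits lie above the 28.7% of the full-length series. Further in, the share at base 32 was 64.6% of 285 BCP reads with start 6 and 49.7% of 159 with start 7. Ends at base 36, missing from starts 1 and 2 in BCP, had 3 reads with start 3 and 69 reads with start 4. For starts 1 to 4 these fragments are 36, 35, 34 and 33 nt long. Over all tRNAs, the BCP list lacks 5 of 11 sequences of 36 nt with at least 20 UNM reads. At 35 nt it lacks 4 of 17, at 34 nt 3 of 18 and at 33 nt none of 18. The part of these gaps in the missing ends was not tested.

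Both variants had end shares near those of the full-length series rather than of the shortened fragments with starts 2 to 4. Fragments with G1A held 948 long reads in BCP, of which 49.6% ended at base 32 (46.4 to 52.8%), 25.8% at base 33, 4.11% at base 34 and 19.7% at base 35. The same letters would arise from an A added in front of a start-2 fragment, and which reading holds was not tested. The G1A fragment of 32 nt had 2 reads in UNM and 470 in BCP, and that of 33 nt had 1 and 245. Fragments with A12G held 212 reads over ends 30 to 35 in BCP, with 50.5% at base 32 (43.5 to 57.4%), 25.5% at base 33, 2.83% at base 34 and 21.2% at base 35, and had no read in UNM. The A12G fragment of 32 nt, chosen after its values were seen, had 107 reads in BCP. Of the long tRNA-Asp reads in BCP, G1A made up 0.0709% and A12G 0.0159%, and whether these are misread bases was not tested. The UNM upper limit for A12G, 0.108%, lies above its BCP share, so its lack of UNM reads shows no difference. A T before base 1 was found in 14 reads of BCP and in none of UNM.

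The 3′ side of the same tRNA was far less abundant. The next sequences are shown for their starts, from the last anticodon base to the first base after the loop, with bases beyond the 72 in capitals.
start 39, end 72: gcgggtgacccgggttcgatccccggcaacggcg
start 39, end 73: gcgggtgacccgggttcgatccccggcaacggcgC
start 38, end 72: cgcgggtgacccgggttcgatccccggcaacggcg
start 38, end 73: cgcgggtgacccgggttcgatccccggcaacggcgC
start 37, end 71: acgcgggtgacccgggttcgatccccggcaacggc
start 36, end 74: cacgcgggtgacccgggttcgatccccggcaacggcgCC

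In all, 46 members lie on this side, 7 of them with bases beyond the 72 that are not the start of CCA, the tail added to mature tRNAs. Together they had 38 reads in UNM and 827 in BCP, so that reads of the 5′ side, 3373 and 1336284, were 88.8 times as many in UNM (64.5 to 126) and 1616 times as many in BCP (1509 to 1732). Most began just after the anticodon loop: base 39 was the start of 62.2% of the BCP reads and of 21 of the 38 UNM reads, base 38 of 15.8% and 12 reads. In BCP 38.8% ended at base 72 and 19.2% at base 71, while 215 of the 827 reads ended at base 73 and 62 at base 74. Of these 62, 40 were of the start-36 fragment shown above and 11 of its form with AT. Both are 39 nt, the longest length in the BCP list, and whether the RNA itself ends there was not tested. No member had the whole CCA. From base 39 a fragment with the whole CCA would be 37 nt, a length with 13 sequences in the UNM list and 1 in BCP.

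The lists limit what can be seen here. The complement of the fragment that ends at base 32 would be 40 nt to base 72 and 43 nt with CCA, that of end 33 would be 39 and 42 nt, and that of end 35 would be 37 and 40 nt. The longest listed sequence is 40 nt in UNM and TCP and 39 nt in BCP. At 37 nt the lists hold 13 sequences in UNM and 1 in BCP, and at 38 nt none in either. At 39 nt they hold none in UNM and 286 in BCP, and at 40 nt 95 in UNM and none in BCP. The complements without CCA of ends 33 and 35 are thus within the longest listed length. A fragment from base 36 would be 37 nt to base 72 and 40 nt with CCA, and one from base 37 would be 36 and 39 nt. The part of these length limits in the low number of 3′ reads, in their most frequent starts and in the missing whole CCA was not tested.

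The start-39 fragment that ends at base 72 had 7 reads in UNM and 225 in BCP, 4.45 times higher (2.13 to 11.2). Its form with a single C had 12 and 195, 2.25 times higher (1.26 to 4.43). The start-38 fragment that ends at base 72 had 1 and 81 reads, and its form with C had 11 reads in UNM and none in BCP. The start-37 fragment had 38 reads in BCP and the start-36 fragment 40, with none of either in UNM. Fragments that end in a single C were thus the most abundant on this side in UNM, and those that end at base 72 in BCP. In UNM this rests on 23 reads against 8, and 11 of the 23 are of the start-38 form with C. That form is 36 nt long, a length at which the BCP list lacks 5 of 11 sequences with at least 20 UNM reads. The part of this gap in the difference was not tested.

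Members from other parents were rare. A group of 21 sequences had no read in UNM and 27 in BCP. It shares letters with the plastid tRNA-Asp gene as known in general, but origin was not tested. Its most abundant member, and that of the other group, were chosen for printing after their values were seen.
group of 21: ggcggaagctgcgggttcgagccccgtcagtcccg
group of 11: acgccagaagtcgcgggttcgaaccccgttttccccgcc

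The first of these had 15 reads in BCP and the second 6. The group of 11 had 2 reads in UNM and 14 in BCP, and its parent was not identified. No long fragment begins with the first 9 bases of the plastid type, as known in general, although 12 shorter fragments do, of 13 to 24 nt. They had 3011 reads in UNM and 114524 in BCP.

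TCP listed most of the abundant members. All 25 members with at least 50 summed reads are in the TCP list, among them all 7 fragments of the leading series shown above. Of the 31 UNM members, 25 are listed in TCP (80.7%), and of the 103 BCP members 42 (40.8%). Over long sequences of other tRNAs the shares were similar, 584 of 766 in UNM (76.2%) and 1319 of 2819 in BCP (46.8%). Of the 42 BCP members with at least 10 reads, 33 are listed (78.6%), against 83.8% of 927 long sequences of other tRNAs with as many reads. By position, 31 of 43 BCP members on the 5′ side are listed and 11 of 33 on the 3′ side without other added bases. Of the 64 TCP members, 19 are not in the UNM or BCP list under the label GTC (29.7%). Of 2141 long TCP sequences of other tRNAs, 695 are in neither other list (32.5%). Its depth is unknown, so a missing sequence cannot be read as absent from the pollen.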

How the data were processed

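Each library's list was deposited as 3 columns per the file headers: anticodon, sequence and count. For UNM and BCP the authors deposited each sequence's raw count, not normalized. The TCP number (1 to 28, summing to 24515 over 8633 sequences) was treated as a deposited score of unstated meaning and used only for presence. Per the submitters' processing notes, reads were handled with Bowtie 1.1.2. How reads were trimmed and mapped, and to which reference and build, is not given in the sources used here.

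Members carry the file's own label GTC and have 30 nt or more. They, and the lists, were chosen with earlier results of these data known. Series share their first 10 nt. Positions come from a chain of members that overlap by at least 15 nt, with 1 substitution allowed, and parents from a shared stretch of 12 nt. No genome was used, so no coordinates are given. Intervals (95%) are exact: Clopper-Pearson for shares, conditional binomial for their ratios. A sequence with 50 or more summed reads was called at a 2-fold ratio whose interval excludes 1, and a 0 was set to 3 counts for the ratio alone. The call rule was tested on simulated data for counting error only. With 1 library per stage no test between stages was made. Named are the 10 most abundant members in each of UNM and BCP, the 5 with the highest and 5 with the lowest ratios past the call, and the top member of each series with 50 reads. Denominators, length limits, read minimums, labels and weights were varied. Python 3.11.15, pandas 2.3.3, numpy 2.4.6 and scipy 1.17.1 were used. Columns of other samples numbered 0.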

Additional observations from a re-analysis of the deposited data

How the results depend on the processing

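Over 10 results, 52 alternatives were run: 26 left the value within its limits, 25 moved it and 1 reversed a direction. Alternatives with fragments of at most 35 nt, and with reads labelled ATC added, were chosen after seeing the data. The 54.3-fold higher share of long tRNA-Asp fragments became 84.2 without tRNA-Asp reads in the total, 37.4 from 33 nt on, 68.3 with at most 33 nt, 59.2 with at most 35 nt and 51.2 without the most abundant member of each library. The 1.68-fold higher share of long reads among tRNA-Asp reads became 1.77 without sequences whose label differs between lists, 1.16 from 33 nt on, 1.94 with at most 33 nt, 1.76 with at most 35 nt, 2.03 without the top member and 1.85 with ATC-labelled reads. From 200 summed reads on, 13 members were called higher. The mean 3′ end of the leading series, -0.40 nt in BCP against UNM, became -0.25 with at most 33 nt and -0.19 with at most 35 nt, and reversed to 1.001 over all lengths from 13 nt, where the 14-nt to 19-nt fragments enter. The 1.77-fold higher share that ends at base 32 became 1.62 with at most 33 nt, 1.65 with at most 35 nt, 2.09 from 13 nt on and 1.455 with each sequence counted once. So counted, the leading series held 25.8% of long tRNA-Asp sequences in UNM and 10.7% in BCP, and with a series prefix of 15 nt 99.53% of BCP reads. Members listed in TCP became 100% of those of UNM and 100% of those of BCP at 50 summed reads, and 100% and 78.6% at 10 reads. Depth limits the UNM values of the variants and shortened starts, and no alternative addresses variation between libraries. No paired analysis was possible because each stage has 1 library.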

Other observations

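The number listed for TCP, whose meaning is not stated, was 22 for the leading fragments that end at bases 32 to 36, 21 for that of 31 nt and 19 for that of 30 nt. It was 23 for the start-2 and start-3 fragments shown above, and 1 for the G1A and A12G fragments of 32 nt. It was 16 for the start-39 fragment that ends at base 72 and 2 for its form with a single C. The gene table of rice assembly ASM3414082v1, used only for names and lengths, has 33 genes named TRNAD-GUC, of which 23 span 72 bp, the length of the chain above, and 10 span 74 bp.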
